A study of Danio rerio with 3 samples.

Results

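Protocadherins were taken here as every row of the deposited gene list whose symbol starts with pcdh, which gave 55 genes of 29077. By symbol, 33 start with pcdh1 and 17 with pcdh2, and the other 5 are *pcdh7a*, *pcdh7b*, *pcdh8*, *pcdh9* and *pcdhb*. The members were described in adult zebrafish telencephalon, across cycling cells, neuroblasts, newborn neurons, mature neurons and the oligodendrocyte lineage, each set against radial glia. All 3 replicates came from Tg(Sox2:gfp) fish, a transgenic line that marks neural progenitors with GFP. The fish were 12 weeks old and had been bathed in LY-411575 (LY), a gamma-secretase inhibitor that blocks Notch signaling. The series text gives 48 hours in LY, whereas the study's methods give a shorter exposure. Each replicate was a pool of telencephali sorted on a day of its own, with GFP-positive cells enriched so that radial glia, among them the quiescent neural stem cells (qNSCs), made up more of the sample. Every library was LY-treated, so classes of cells were compared within treated fish and no effect of LY is described.

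Protocadherins are the largest family of cadherin-related adhesion proteins, and they are best known in the nervous system, where they mediate homophilic contacts between neurites, synapses and glial processes. The clustered protocadherins lie in tandem arrays, in which each variable exon has its own promoter and joins a shared constant region, so that single cells express different combinations of isoforms and can tell self from non-self. Non-clustered protocadherins are single genes, divided into the delta-1 type, with a cytoplasmic motif that binds protein phosphatase 1, and the shorter delta-2 type, several of which recruit the actin-regulating WAVE complex.

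The symbol start does not follow these kinds, because *pcdh10* to *pcdh19* and *pcdh1a* share it with the clustered *pcdh1g* isoforms. The members were therefore also divided by kind. There were 20 isoforms of cluster 1, 15 isoforms of cluster 2, 7 delta-1 genes, 7 delta-2 genes and 6 other single genes. *pcdh11*, *pcdh20* and *pcdh2ab2* are each listed under 2 identifiers, and each row was kept apart. The libraries read the 3′ end of transcripts. In the RefSeq annotation of GRCz12tu, 3 of 3 *pcdh1a*, 14 of 15 *pcdh1g*, 11 of 11 *pcdh2a* and 11 of 14 *pcdh2g* isoforms end at the same position as others of their group. UMIs of a clustered isoform are thus only those that could be assigned to it alone among the genes listed. Its level is uncertain in a way that the single genes are not. A level is given as UMIs per 1000000 UMIs of a class in a replicate (CPM) and is not scaled by length, so levels were compared between classes and not between genes.

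The files held 19697 cell barcodes, with 15050320, 13048298 and 12104324 UMIs in replicates 1, 2 and 3. After filtering, 17842 cells remained, and between 43 and 62 barcodes were shared by any pair of libraries. Classes were set from marker UMIs that include no protocadherin. They held 1656 cycling cells, 830 neuroblasts, 2653 newborn neurons, 3924 mature neurons, 1231 cells of the oligodendrocyte lineage and 2133 radial glia, with 278 macrophages as background. Median depth was 2960 UMIs in cycling cells, 2031 in neuroblasts, 1407 in newborn neurons, 1577.5 in mature neurons, 1422 in the oligodendrocyte lineage and 1893 in radial glia. Markers also appeared outside their class. After thinning each cell to 1000 UMIs, *gad2* had a UMI in 36.9% of mature neurons, 2.48% of macrophages and 6.58% of radial glia. *fabp7a* had a UMI in 31.7% of mature neurons, 21.3% of macrophages, 64.0% of the oligodendrocyte lineage and 92.5% of radial glia. Of the newborn neuron markers, *tubb5*, *neurod2*, *dlx1a*, *dlx2a* and *dlx5a* were found most often in newborn neurons, and the others in neuroblasts or cycling cells. *stmn1a* had a UMI in 67.0% of cycling cells, against 13.6% of newborn neurons and 19.7% of radial glia. In these classes 5137 cells (28.8%) found no place, and 438 radial glia sat at the minimum of 4 markers. The median cycling cell also had 4 radial glia markers and 4 newborn neuron markers, the minimum for each of those gates. These counts are at full depth, where cycling cells were the deeper class. By number of markers, cycling cells thus overlapped both radial glia and newborn neurons. Radial glia markers took a median of 0.44% of the UMIs of a cycling cell, against 2.15% in radial glia. The study divides cycling cells into neural stem cells and intermediate progenitors, which this class holds together.

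Protocadherin RNA was higher in neurons and in the oligodendrocyte lineage as a whole than in radial glia. It was close to radial glia in cycling cells, and between those levels in neuroblasts. Within the lineage, myelinating oligodendrocytes lay below radial glia, as given further below. Over all kept cells the members gave 51394 UMIs, 0.148% of all UMIs. Their summed level was 1971, 2358 and 1681 CPM in newborn neurons of replicates 1, 2 and 3, and 2057, 1973 and 1719 in mature neurons. The oligodendrocyte lineage had 2279, 1573 and 1473, against 797, 823 and 656 CPM in radial glia. All 3 replicates of these 3 classes lay above all 3 of radial glia, with ratios within a replicate of 2.47 to 2.87 for newborn neurons, 2.4 to 2.62 for mature neurons and 1.91 to 2.86 for the oligodendrocyte lineage. Neuroblasts, with 1044, 1249 and 829 CPM, were 1.26 to 1.52 times as high as radial glia of their own replicate. Cycling cells had 632, 660.4 and 653 CPM, which overlapped the radial glia range and lay below radial glia of the same replicate in all 3. In order of the mean, newborn and mature neurons and the oligodendrocyte lineage (2004 ± 339.9, 1916 ± 176 and 1775 ± 439 CPM; SD, n = 3) did not differ beyond their spread. Macrophages, immune cells used as the background of free RNA, had 132 ± 34.4 CPM (SD, n = 3). With 3 replicates an exact sign-flip test cannot give a p under 0.25, so no test was made of the sums.

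**Figure D1:**
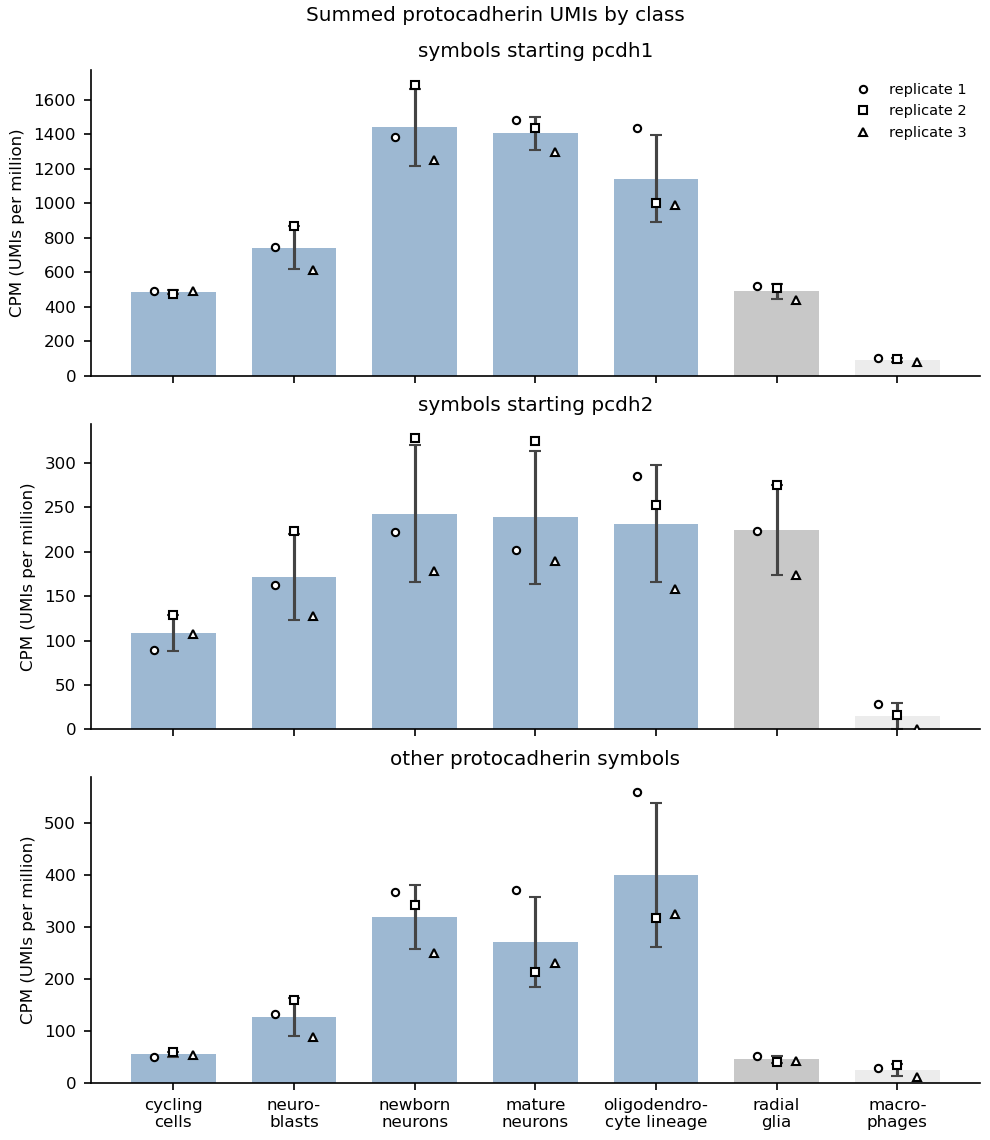
Summed CPM of the protocadherins whose symbol starts with pcdh1, with pcdh2 and otherwise, by class of cell. Bars are means, error bars SD and symbols the 3 replicates; the pcdh1 sum averaged 1406 ± 95.5 in mature neurons and 489 ± 43.4 in radial glia, whereas the pcdh2 sum averaged 239 ± 74.8 in mature neurons and 225 ± 50.8 in radial glia.

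The subgroups differed in how they were spread over the classes, as the plot of summed UMIs by subgroup shows. Genes starting with pcdh1, which gave 70.2% of protocadherin UMIs, were 2.65 to 3.33 times as high in newborn neurons, 2.83 to 2.96 times in mature neurons and 1.98 to 2.75 times in the oligodendrocyte lineage as in radial glia. The 5 other genes, with 7925 of their 8002 UMIs from *pcdh7a*, *pcdh7b* and *pcdh9*, were 5.85 to 8.42 times as high in newborn neurons, 5.24 to 7.0 in mature neurons and 7.57 to 10.6 in the oligodendrocyte lineage. Genes starting with pcdh2 stood apart, since their sum in newborn neurons (223, 328 and 178 CPM), mature neurons (203, 325 and 189) and the oligodendrocyte lineage (285, 253 and 158) overlapped that in radial glia (224, 276 and 174). In cycling cells the pcdh2 sum was lower, at 89.4, 129 and 107 CPM, or 0.399 to 0.614 times radial glia.

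That flat pcdh2 sum joined members of unlike pattern. The row of *pcdh2g28* gave 4896 of the 7312 pcdh2 UMIs and had its highest level in radial glia. The 14 *pcdh2a* isoforms together went the other way, with 58, 159 and 62.2 CPM in newborn neurons, 62.4, 174 and 74.7 in mature neurons and 87, 115 and 60.5 in the oligodendrocyte lineage, against 4.26, 13.3 and 6.8 in radial glia. By kind, cluster 1 isoforms were 2.51 to 3.11 times as high in newborn neurons and 1.82 to 2.34 times in mature neurons as in radial glia of the same replicate. Delta-1 genes were 4.22 to 5.11 times as high in newborn and 4.79 to 5.44 times in mature neurons, and delta-2 genes 2.47 to 3.47 and 2.65 to 3.22 times. In the oligodendrocyte lineage the ratios to radial glia were 2.72 to 3.19 for cluster 1 isoforms, 4.08 to 6.18 for delta-1 genes and 1.49 to 2.2 for delta-2 genes.

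Gene by gene, 37 of the 55 members had enough UMIs to be tested, 118 or more over all kept cells. Of the other 18, 15 had at most 100 UMIs and 3 had none. The tests used edgeR on UMIs summed per replicate and class, with the replicate as a block and adjustment over all 11595 genes tested. A difference is a log2 value with its standard error, relative to the typical gene, and a gene was called at an adjusted p under 0.05. The standard error was derived from the test, as the absolute log2 difference divided by the square root of its F statistic. Because all 5 comparisons with radial glia use the same radial glia sums, they are not independent of each other.

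In newborn neurons 27 of 37 tested members rose and 1 fell relative to radial glia, where 26.5% of all genes tested rose and 29.0% fell. Mature neurons had 26 higher and 2 lower, against 30.9% and 33.2% of all genes. For the oligodendrocyte lineage 23 were higher and 2 lower, against 22.7% and 24.0%. Neuroblasts had 19 higher and 3 lower, against 20.1% and 24.5%. Cycling cells, with 5 higher and 4 lower against 18.3% and 21.8% of all genes, were near the background. The number called higher there fell to 1 without the block, and to 2 without replicate 3 or with classes set on thinned cells. Calls of single members in cycling cells given below carry this limit. The median member differed from radial glia by 1.47 in newborn neurons, 1.44 in mature neurons, 1.27 in the oligodendrocyte lineage, 0.95 in neuroblasts and −0.08 in cycling cells, while the median of all genes lay between −0.04 and 0.01. Some members passed the filter only through the class in which they are high. Among those with at least 10 UMIs in both classes, 24 of 33 were higher and 1 lower in newborn neurons, 23 of 33 and 2 in mature neurons, 20 of 32 and 2 in the oligodendrocyte lineage, 17 of 32 and 2 in neuroblasts, and 5 of 32 and 4 in cycling cells. Without scaling factors, which was added once the data had been seen, the median of all genes in newborn neurons shifted by 0.21 and the split of all called genes moved to 3982 higher and 2707 lower, against 3078 and 3359; the members were then 29 higher and 1 lower.

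**Figure D2:**
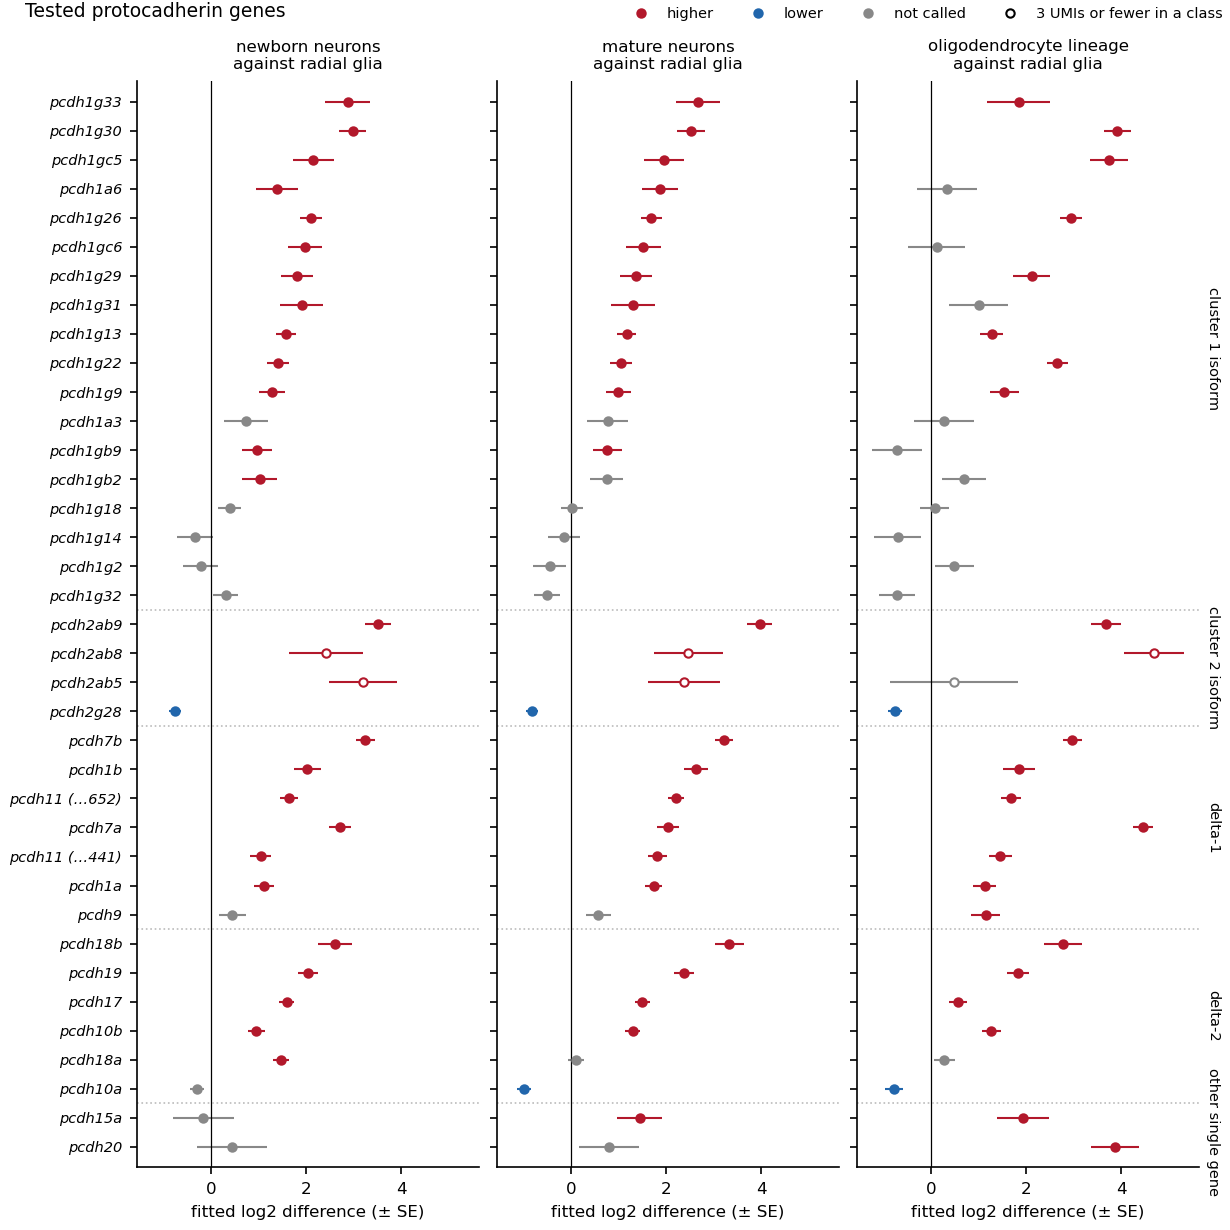
Fitted log2 difference (with SE) of the 37 tested protocadherins in newborn neurons, mature neurons and the oligodendrocyte lineage, each against radial glia, with red for higher, blue for lower and grey for not called; open symbols had 3 UMIs or fewer in a class, and the *pcdh11* rows are told apart by the last digits of their identifiers. *pcdh2g28* lay below 0 in all 3 panels, at −0.75, −0.81 and −0.75, whereas *pcdh7b* lay at 3.25, 3.21 and 2.97.

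Among the delta-1 genes, 6 of 7 rose in newborn and in mature neurons and 7 of 7 in the oligodendrocyte lineage. Of all genes tested, 26.5%, 30.9% and 22.7% rose in these 3 classes. *pcdh7b* (ENSDARG00000060610), a paralog of the delta-1 gene *pcdh7*, had 268, 219 and 174 CPM in newborn neurons and 281, 158 and 171 in mature neurons, against 24.3, 18.9 and 17 in radial glia. Its neuronal and radial glial values did not overlap, with a log2 difference 3.25 ± 0.19 (SE), edgeR adjusted p = 1.46e-16 in newborn and 3.21 ± 0.19, edgeR adjusted p = 5.28e-17 in mature neurons. The oligodendrocyte lineage had 229, 110.1 and 123 and neuroblasts 63.7, 74.5 and 40.3 CPM of the same gene, both called higher (2.97 and 1.45).

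Its paralog *pcdh7a* (ENSDARG00000078898) had another order, with the oligodendrocyte lineage highest. The level there was 269.98, 177 and 186 CPM, against 12.2, 7.01 and 10.2 in radial glia (log2 difference 4.45 ± 0.21 (SE), edgeR adjusted p = 3.77e-23). Newborn neurons had 69.4, 89.4 and 63 and mature neurons 54.2, 38.3 and 38.4 CPM, so that *pcdh7a* was lower in mature than in newborn neurons (log2 difference −0.66 ± 0.16 (SE), edgeR adjusted p = 0.00088). It was called higher in neuroblasts too, at 57, 64.1 and 36.6, and in cycling cells, at 15, 17 and 19.96 CPM (log2 differences 2.29 ± 0.27 and 0.79 ± 0.28).

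*pcdh1a* and *pcdh1b*, the delta-1 genes related to mammalian PCDH1, rose in both neuronal classes. *pcdh1b* had 41.5, 28.9 and 23 CPM in newborn neurons and 57.2, 41.7 and 33.6 in mature neurons, against 7.3, 6.31 and 6.12 in radial glia, with log2 differences of 2.02 ± 0.28 and 2.63 ± 0.25. *pcdh1a* had 68.7, 61.1 and 57.5 in mature neurons, against 20.1, 16.1 and 15.6 in radial glia (log2 difference 1.73 ± 0.19 (SE), edgeR adjusted p = 1.73e-11). Both were also higher in mature than in newborn neurons, by 0.62 ± 0.16 for *pcdh1a* and 0.61 ± 0.18 for *pcdh1b*.

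The *pcdh11* rows, whose mammalian counterpart is a delta-1 gene of the X chromosome, were higher in neurons but were not called in neuroblasts or cycling cells. Row ENSDARG00000098652 had 175, 145 and 121 CPM in mature neurons and 110.2, 113 and 92.9 in newborn neurons. Neuroblasts had 39.3, 29.8 and 22 and cycling cells 32.7, 16.1 and 27, against 29.2, 30.9 and 28.6 in radial glia. Mature neurons were higher than radial glia (log2 difference 2.21 ± 0.18 (SE), edgeR adjusted p = 5.32e-14), whereas neuroblasts (−0.07) and cycling cells (−0.33) were not called. Row ENSDARG00000105441 had 92.5, 89.7 and 85.6 in mature neurons, against 31, 21.7 and 17 in radial glia (log2 difference 1.81 ± 0.20 (SE), edgeR adjusted p = 3.60e-10). Among the comparisons with radial glia, *pcdh9*, the remaining delta-1 gene, was called in cycling cells, where it was lower at 7.96, 8.52 and 3.74 CPM against 15.8, 14 and 13.6 in radial glia (log2 difference −1.19 ± 0.35 (SE), edgeR adjusted p = 0.0051), and in the oligodendrocyte lineage, where it was higher (log2 difference 1.15 ± 0.30 (SE), edgeR adjusted p = 0.0016) in 2 of 3 replicates.

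Delta-2 genes gave 34.7% of protocadherin UMIs and were less uniform. In mature neurons 4 of 6 tested genes rose and 1 fell, and in newborn neurons 5 rose and 0 fell. Of all genes tested, 30.9% rose and 33.2% fell in mature neurons, and 26.5% and 29.0% in newborn neurons. *pcdh19*, whose human counterpart is mutated in an epilepsy syndrome and whose product acts together with N-cadherin, was the member with the most UMIs, 8218 in all kept cells. It had 246, 487 and 299.9 CPM in newborn neurons and 383, 392 and 425 in mature neurons, against 76, 82.8 and 55.8 in radial glia. All 6 neuronal values exceeded the radial glial ones (log2 difference 2.37 ± 0.22 (SE), edgeR adjusted p = 3.77e-08 in mature neurons), and neuroblasts, at 111, 151 and 98.9, were not called.

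*pcdh17*, which has roles in axons and presynaptic terminals in the mouse, had 155, 180.03 and 130.4 CPM in newborn neurons and 159, 141 and 111 in mature neurons, against 59, 39.98 and 35.4 in radial glia. Both neuronal classes were higher (log2 differences 1.59 ± 0.16 and 1.5 ± 0.15), and cycling cells were higher by a smaller amount (log2 difference 0.54 ± 0.17 (SE), edgeR adjusted p = 0.0072). *pcdh18b* was highest in mature neurons, at 33.1, 29.6 and 32.9 CPM, and had 25.1, 13.5 and 23.9 in newborn neurons and 7.96, 8.04 and 9.15 in cycling cells, against 3.04, 2.81 and 2.72 in radial glia. Its difference in mature neurons (log2 difference 3.33 ± 0.30 (SE), edgeR adjusted p = 9.74e-14) was the second largest among members called there, and it led the members called in cycling cells (log2 difference 1.46 ± 0.40 (SE), edgeR adjusted p = 0.0027). Calls in cycling cells depended on the fit, as given above.

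Its paralog *pcdh18a* was highest in newborn neurons. It had 101, 109 and 102 CPM in newborn neurons and 34.3, 34.9 and 45.2 in mature neurons, against 24.3, 37.9 and 36 in radial glia. Newborn neurons were higher than radial glia (log2 difference 1.47 ± 0.16 (SE), edgeR adjusted p = 6.77e-11), mature neurons were not called (0.11 ± 0.18), and mature neurons were lower than newborn neurons (log2 difference −1.36 ± 0.15 (SE), edgeR adjusted p = 9.59e-11).

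The *pcdh10* paralogs, whose mammalian counterpart binds the WAVE complex through Nap1, differed in direction in mature neurons. *pcdh10b* had 86.5, 76.6 and 89.1 CPM in mature neurons, against 35.3, 26.7 and 32.6 in radial glia (log2 difference 1.29 ± 0.17 (SE), edgeR adjusted p = 1.90e-09). *pcdh10a* had 41.9, 33.9 and 41.8 in mature neurons and 23.1, 28.3 and 20.1 in neuroblasts, against 70.5, 76.5 and 67.3 in radial glia. It fell in mature neurons (log2 difference −0.99 ± 0.15 (SE), edgeR adjusted p = 2.14e-07), neuroblasts (log2 difference −1.71 ± 0.22 (SE), edgeR adjusted p = 6.30e-09), the oligodendrocyte lineage (−0.78) and cycling cells (−0.71), and its values in newborn neurons, 71.6, 69.4 and 61.3, overlapped those of radial glia.

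In cluster 2, *pcdh2g28* (ENSDARG00000098788) was the one tested isoform that fell in all 5 comparisons with radial glia. It had 80.5, 108 and 84.4 CPM in cycling cells, 130.2, 125 and 71.4 in neuroblasts, 162, 165 and 115 in newborn neurons, 136, 147 and 113 in mature neurons and 164, 123 and 79 in the oligodendrocyte lineage, against 217, 262 and 166 in radial glia. Within each replicate radial glia were the highest of the 6 classes. The log2 difference was −1.3 ± 0.13 in cycling cells, −1.1 ± 0.15 in neuroblasts and −0.81 ± 0.13 in mature neurons, with edgeR adjusted p = 1.11e-11, 1.71e-08 and 2.00e-07. Since it is the only *pcdh2g* isoform in the gene list while RefSeq has 14, its level carries the uncertainty of a shared end. UMIs of other *pcdh2g* isoforms could have been counted in this row, which was not tested.

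*pcdh2ab9* showed the reverse, at 46.4, 150.3 and 62.3 CPM in mature neurons and 34.4, 125 and 42.6 in newborn neurons, against 1.22, 9.82 and 4.08 in radial glia. It was called higher in mature neurons (log2 difference 3.97 ± 0.26 (SE), edgeR adjusted p = 4.10e-18), newborn neurons (3.51 ± 0.28), the oligodendrocyte lineage (3.68 ± 0.31), neuroblasts (2.83 ± 0.35) and cycling cells (1.08 ± 0.37). Replicate 2 had the most in every class. *pcdh2ab8* and *pcdh2ab5* had only 3 UMIs each in radial glia, so that their ratios are given with counting error. In CPM, *pcdh2ab8* was 30.3 times as high in the oligodendrocyte lineage as in radial glia (43 against 3 UMIs, exact 95% interval 9.69 to 153) and *pcdh2ab5* was 12.1 times as high in newborn neurons (33 against 3 UMIs, 3.80 to 61.7). *pcdh2ab5* had 2 UMIs in the oligodendrocyte lineage. The 11 untested isoforms of cluster 2 had at most 82 UMIs each.

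Of 20 cluster 1 isoforms 18 were tested. In newborn neurons 13 of them rose, in mature neurons 12, in neuroblasts 11 and in the oligodendrocyte lineage 8. Of all genes tested, 26.5%, 30.9%, 20.1% and 22.7% rose in these classes, in that order. None of the 18 fell in them, against 29.0%, 33.2%, 24.5% and 24.0% of all genes. *pcdh1g13*, the first of the isoforms by UMIs in mature neurons, had 37.6, 67.4 and 42.5 CPM in mature and 61.6, 85.5 and 60.5 in newborn neurons, against 17.6, 21.7 and 20.4 in radial glia (log2 difference 1.17 ± 0.20 (SE), edgeR adjusted p = 1.52e-06 in mature neurons). *pcdh1g30* had its highest mean in the oligodendrocyte lineage, at 109, 48.7 and 92.4, with 62.3, 61.1 and 33.2 in newborn neurons, against 7.91, 4.21 and 4.76 CPM in radial glia. It rose in both classes (log2 difference 3.92 ± 0.28 (SE), edgeR adjusted p = 6.47e-16, and 2.98 ± 0.29 in newborn neurons).

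In neuroblasts *pcdh1g33*, at lower counts, was called higher (log2 difference 2.49 ± 0.58 (SE), edgeR adjusted p = 0.0004). The gene was also called in neurons and in the oligodendrocyte lineage. It had 10.3, 15 and 8.22 CPM in mature neurons and 6.0, 9.02 and 1.68 in the oligodendrocyte lineage, against 1.22, 1.4 and 2.04 in radial glia (2.67 ± 0.46 and 1.84 ± 0.67, called in the lineage with 2 of 3 replicates higher). *pcdh1gc5* had 34, 32.5 and 42 in the oligodendrocyte lineage, against 2.43, 2.1 and 3.4 in radial glia (log2 difference 3.75 ± 0.39 (SE), edgeR adjusted p = 1.50e-11). Several isoforms were not called in any neuronal class, among them *pcdh1g14*, *pcdh1g18* and *pcdh1g2*.

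The *pcdh1g* UMIs of the classes were made up of different isoforms, as the plot of isoform shares shows. *pcdh1g32* gave 19 ± 4.0% of *pcdh1g* UMIs in cycling cells, 9.85 ± 5.74% in neuroblasts, 5.62 ± 2.33% in newborn neurons, 3.9 ± 1.96% in mature neurons and 1.84 ± 1.78% in the oligodendrocyte lineage, against 11.1 ± 2.04% in radial glia (SD, n = 3). As a level it rose in cycling cells (log2 difference 0.86 ± 0.25 (SE), edgeR adjusted p = 0.0038) and was lower in mature than in newborn neurons (log2 difference −0.82 ± 0.26 (SE), edgeR adjusted p = 0.0084). In the oligodendrocyte lineage *pcdh1g30*, *pcdh1g22* and *pcdh1g26* led, with 18.9 ± 6.75%, 17.2 ± 1.3% and 16.3 ± 5.02% of *pcdh1g* UMIs there, against 3.85 ± 1.25%, 8.4 ± 1.57% and 6.39 ± 1.27% in radial glia. *pcdh1g18* took 3.52 ± 0.855% in the lineage, against 10.9 ± 2.1% in radial glia. No test was made of the shares, which sum over isoforms and so depend on each other.

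**Figure D3:**
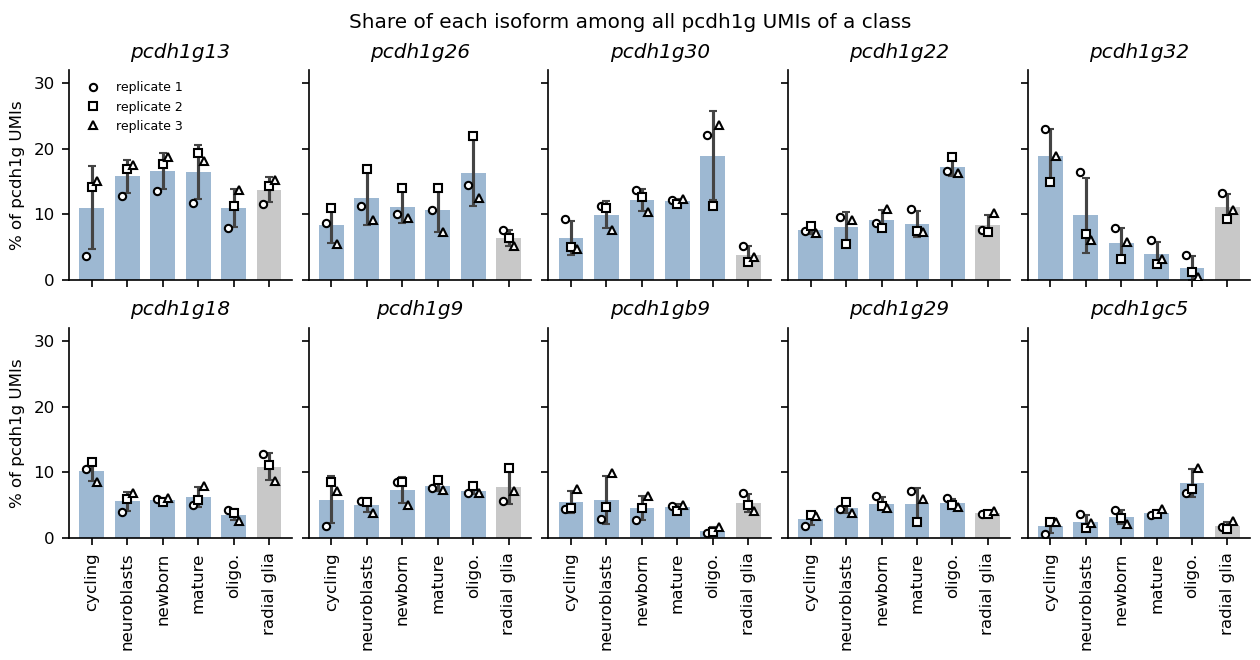
Share of *pcdh1g* UMIs (percent) taken by each of 10 isoforms, by class of cell. Bars are means, error bars SD and symbols the 3 replicates; *pcdh1g32* took 3.9 ± 1.96% in mature neurons, against 11.1 ± 2.04% in radial glia, while *pcdh1g30* held 18.9 ± 6.75% in the oligodendrocyte lineage, against 3.85 ± 1.25% in radial glia.

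Of the other single genes, 2 of 6 were tested. *pcdh12*, known from endothelial cells, had 5 UMIs in all kept cells, and *pcdh8*, a delta-2 gene, had 22. *pcdh15a*, whose product forms the tip links of hair cells together with cadherin 23, had 12, 5.33 and 3.43 CPM in mature neurons and 16, 7.22 and 3.36 in the oligodendrocyte lineage, against 4.26, 0.701 and 2.04 in radial glia. It was called higher in both classes (1.44 ± 0.47 and 1.93 ± 0.54). In neuroblasts it had 0 UMIs against 11 in radial glia, at least 1.58-fold lower with 3 UMIs over the class as the floor, and that call was lost without replicate 3, without the block and in DESeq2. *pcdh20* (ENSDARG00000036424) was called in 1 of the 5 comparisons with radial glia, in the oligodendrocyte lineage, with 34, 14.4 and 18.5 CPM there, against 2.43, 0.701 and 1.36 in radial glia (log2 difference 3.87 ± 0.51 (SE), edgeR adjusted p = 6.27e-09).

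Mature and newborn neurons were also compared with each other. The mature gate includes the markers of neuron type given below, and the classes were not matched for it. In thinned cells, *gad2* had a UMI in 36.9% of mature and 13.3% of newborn neurons. For *slc17a6a* these shares were 7.23% and 2.91%, and for *slc17a6b* 3.68% and 3.93%. The newborn gate markers *tbr1b* (7.61% and 31.3%) and *dlx2a* (7.77% and 15.9%) were found less often in mature neurons. Whether a difference followed maturity or neuron type was not tested. Of 37 members 7 were higher and 7 lower in mature neurons, against 23.1% and 20% of all genes, so the members were near the background in both directions. By kind, 4 of 7 delta-1 genes were higher and 1 lower, and 0 of 18 cluster 1 isoforms were higher and 4 lower; the difference between kinds was not tested. *pcdh15a*, *pcdh11* (ENSDARG00000105441), *pcdh18b*, *pcdh1a* and *pcdh1b* rose most, by 1.61 ± 0.47, 0.77 ± 0.17, 0.73 ± 0.20, 0.62 ± 0.16 and 0.61 ± 0.18 on the log2 scale. *pcdh18a*, *pcdh1g32*, *pcdh10a*, *pcdh7a* and *pcdh1g30* differed by −1.36 ± 0.15, −0.82 ± 0.26, −0.69 ± 0.16, −0.66 ± 0.16 and −0.46 ± 0.19. Summed *pcdh1g* UMIs were 0.70 to 0.72 times as high in mature as in newborn neurons, in all 3 replicates. The call counts depended on the fit, with 4 higher and 3 lower members without the block and 11 higher and 3 lower when classes were set on thinned cells.

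Mature neurons with a UMI of *gad1b*, *gad2* or *slc32a1* and none of *slc17a6a*, *slc17a6b* or *slc17a7a* were taken as GABAergic (2381 cells). The reverse set the glutamatergic cells (443 cells). At 1000 UMIs *gad2* was found in 36.9% of mature neurons and 6.58% of radial glia. *slc17a6a*, the glutamatergic marker found most often, was found in 7.23% of mature neurons, *slc17a6b* in 3.68% and *slc17a7a* in 0.38%. The split thus rests on few UMIs per cell, and glutamatergic cells without such a UMI are left out. The study's dissection enriched for pallial cells, so these cell numbers are not to be read as shares of neuron types. Summed protocadherin levels of these subclasses overlapped. GABAergic cells had 2055, 1968 and 1717 CPM, against 2098, 1943 and 1886 CPM in glutamatergic cells. Of 21 members tested, 2 were higher and 3 lower in GABAergic cells, against 8.46% and 7.7% of all genes. *pcdh18b* (log2 difference 0.99 ± 0.34 (SE), edgeR adjusted p = 0.025) and *pcdh7b* (0.56 ± 0.15) were higher. *pcdh11* (ENSDARG00000105441), *pcdh2g28* and *pcdh17* were lower (−0.52 ± 0.19, −0.51 ± 0.16 and −0.51 ± 0.16), the last in 2 of 3 replicates. None of the 5 calls held without the block or in DESeq2, and without replicate 1 the counts were 1 higher and 0 lower.

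Inside the oligodendrocyte lineage the levels lay far apart. Precursors here are all cells of the lineage with fewer than 4 myelin markers, so the name does not fix their stage. The median myelinating cell also had 3 precursor markers, the minimum of that gate. Protocadherins summed to 477, 338 and 433 CPM in myelinating oligodendrocytes (274 cells, median 2581.5 UMIs), against 2884, 2646 and 2022 in precursors (957 cells, median 1310 UMIs), or 0.128 to 0.214 times the precursors of the same replicate. The myelinating values also all lay below those of radial glia (797, 823 and 656 CPM), so the higher level of the lineage came from the cells called precursors. The mean of the precursors was the highest of all classes and subclasses described. Of the 55 members, 16 passed the filter in this fit, and all 16 were lower in myelinating cells, where 25.3% of 3760 genes tested were lower and 24.7% higher. A member high in precursors alone could pass, so these 16 do not stand for the family. Among the 8 with at least 10 UMIs in each subclass, 8 were lower. In myelinating cells the 8 myelin markers took a median of 14.9% of the UMIs of a cell, against 0.0536% in precursors, and their part in the lower levels was not tested.

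*pcdh7b* fell furthest, with 15.9, 0 and 14.6 CPM in myelinating cells, against 301, 206 and 179.6 in precursors (log2 difference −4.49 ± 0.37 (SE), edgeR adjusted p = 1.67e-11). *pcdh19* had 31.8, 23.3 and 19.5 in myelinating cells, against 367, 334 and 379.7 in precursors (log2 difference −3.78 ± 0.28 (SE), edgeR adjusted p = 1.44e-12). *pcdh11* (ENSDARG00000098652), *pcdh10b* and *pcdh1g13* were the other large falls, at −4.18 ± 0.41, −3.57 ± 0.42 and −3.19 ± 0.53. The drop was smallest for *pcdh1g30*, which had 47.7, 23.3 and 68.1 CPM in myelinating cells, against 129.6, 70.8 and 105 in precursors (log2 difference −1.16 ± 0.29 (SE), edgeR adjusted p = 0.0014). *pcdh7a* kept 107, 62.1 and 73 CPM in myelinating cells, against 325, 276 and 246 in precursors (−1.77 ± 0.22), both above its level in radial glia.

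**Figure D4:**
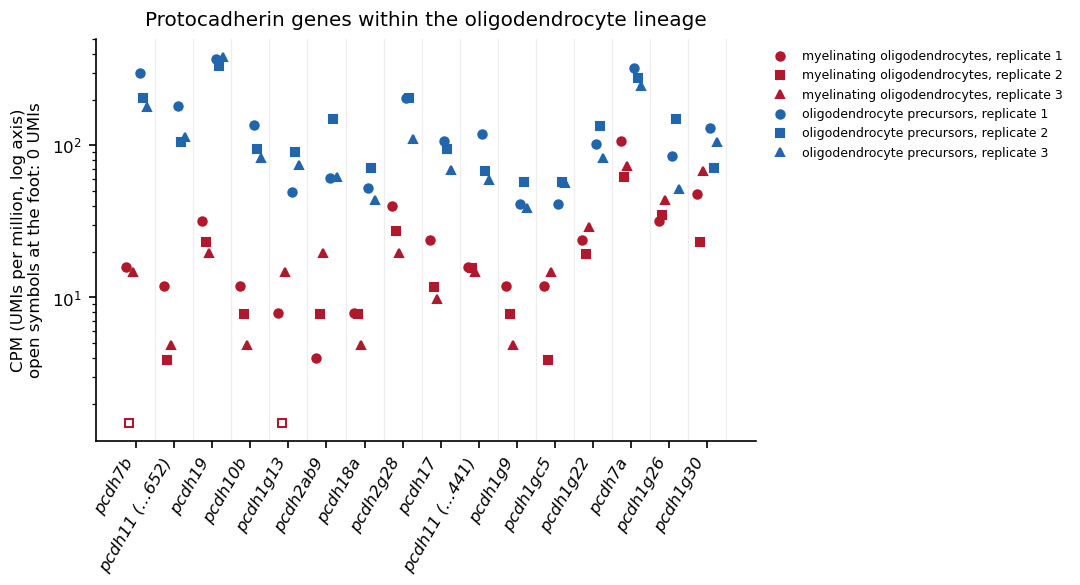
CPM, on a log axis, of the 16 tested protocadherins in myelinating oligodendrocytes (red) and oligodendrocyte precursors (blue), 1 symbol per replicate, with open symbols at the foot for 0 UMIs. *pcdh19* had 31.8, 23.3 and 19.5 in myelinating cells and 367, 334 and 379.7 in precursors.

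Cell by cell, protocadherins were found in more neurons than radial glia at equal depth. Cells under 1000 UMIs were left out, which were 26.2% of newborn neurons, 19.0% of mature neurons and 18.4% of the oligodendrocyte lineage. They were 4.46% of neuroblasts, 5.95% of radial glia, 1.63% of cycling cells and 27.3% of macrophages, so the shares cover the deeper cells. After thinning to 1000 UMIs, 77.4 ± 4.14% of newborn neurons and 81.4 ± 1.63% of mature neurons had at least 1 protocadherin UMI, against 49.96 ± 2.63% of radial glia (SD, n = 3). Neuroblasts had 55.4 ± 8.34% and cycling cells 42.8 ± 2.73%. Cycling cells were lower than radial glia in all 3 replicates by 7.16 percentage points on average, and without thinning, where they are the deeper class, they were at 73.5 ± 3.92% against 71.6 ± 1.68%. In the oligodendrocyte lineage 70.4 ± 8.07% of cells were positive, made up of 25 ± 8.54% of myelinating cells against 86.7 ± 5.33% of precursors. Macrophages, at 11 ± 1.3%, were taken as the background at this depth. At 2000 UMIs, the difference of the oligodendrocyte lineage from radial glia turned to −8.40 percentage points, against 20.5 at 1000 UMIs.

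With their higher summed level, neurons had UMIs of more protocadherin genes per cell. This count rises with the summed level, and whether neurons held a wider set of genes at an equal level was not tested. At 1000 UMIs the mean number with a UMI was 1.69 ± 0.251 in newborn neurons, 1.66 ± 0.147 in mature neurons and 1.81 ± 0.363 in the oligodendrocyte lineage, against 0.70 ± 0.0649 in radial glia (SD, n = 3). Neuroblasts had 0.93 ± 0.159 and cycling cells 0.578 ± 0.0392. Cells with at least 2 of the genes made up 48.6 ± 5.95% of mature neurons, against 15.6 ± 2.93% of radial glia.

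**Figure D5:**
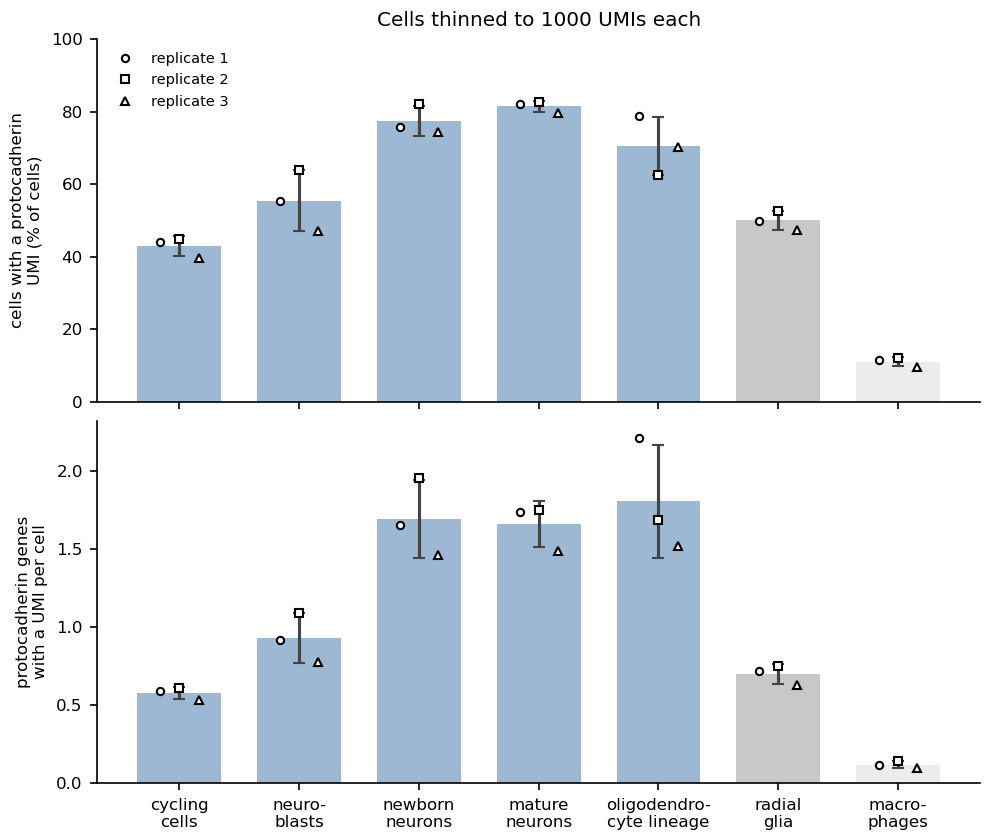
Share of cells with at least 1 protocadherin UMI (percent) and mean number of protocadherin genes per cell, by class, after thinning each cell to 1000 UMIs; bars are means, error bars SD and symbols the 3 replicates. The share was 81.4 ± 1.63% in mature neurons and 49.96 ± 2.63% in radial glia.

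Single members reached fewer cells. *pcdh19* had a UMI in 27.6 ± 2.16% of mature neurons, against 6.33 ± 0.715% of radial glia and 1.33 ± 1.21% of macrophages. *pcdh7b* was seen in 16.8 ± 4.45% of mature neurons, against 1.49 ± 0.43% of radial glia, and *pcdh7a* in 18 ± 5.16% of the oligodendrocyte lineage, against 0.761 ± 0.396% of radial glia. For *pcdh2g28* the share was 12.6 ± 1.93% of mature neurons, against 18.3 ± 4.08% of radial glia, and 0.267 ± 0.462% of macrophages.

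The RNA of genes related to protocadherin function and of other cadherin families was followed on 4 lists. In mature neurons against radial glia, the median log2 difference was 0.06 for genes of promoter choice and silencing, 0.69 for classical cadherins and catenins, 0.11 for cytoplasmic partners and −0.08 for large cadherins, beside −0.03 for all genes tested. The counts on these lists are small and are to be read beside the shares of all genes called in each comparison, which were 30.9% higher and 33.2% lower in mature neurons, 26.5% and 29.0% in newborn neurons, 22.7% and 24.0% in the oligodendrocyte lineage, 20.1% and 24.5% in neuroblasts, and 18.3% and 21.8% in cycling cells. Among 14 tested genes for promoter choice and silencing (CTCF, cohesin and chromatin genes), 8 were higher and 0 lower in cycling cells, 9 and 0 in neuroblasts, 6 and 0 in newborn neurons, 3 and 3 in mature neurons, and 0 and 1 in the oligodendrocyte lineage, each against radial glia. *ctcf*, the insulator protein that brings clustered promoters to their enhancer, differed by 1.1 ± 0.15 in cycling cells, and the cohesin subunit *rad21a* by 1.28 ± 0.11. Protocadherin calls in cycling cells were near the background, and a link of this list to protocadherin levels was not tested. In mature against newborn neurons 0 were higher and 7 lower, where 20% of all genes were lower. Among 14 classical cadherins and catenins, 6 rose and 3 fell in newborn neurons, 8 and 3 in mature neurons, and 9 and 2 in the oligodendrocyte lineage. *cdh7a* was 2.93 ± 0.53 higher in mature neurons, and *ctnna1*, an alpha-catenin that links cadherins to actin, differed by −5.05 ± 0.40 there. Of 18 genes of this list in the files, 9 passed the filter of the fit within the oligodendrocyte lineage, which a gene high in precursors alone could pass, and these 9 were lower in myelinating cells than in precursors, where 25.3% of all genes tested were lower.

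Of 11 cytoplasmic partners, 4 were higher and 3 lower than in radial glia in mature neurons and in the oligodendrocyte lineage, 3 and 4 in newborn neurons, 1 and 5 in neuroblasts, and 1 and 6 in cycling cells. In mature neurons this was near the share of all genes called. Among the 3 lower in mature neurons were the WAVE complex genes *cyfip1* and *wasf2*, at −4.52 ± 0.32 and −3.86 ± 0.43, while 4 other partners were higher there. The list holds further WAVE genes, so *cyfip1* and *wasf2* do not stand for the complex. Of 6 large cadherins, 1 was higher and 3 lower in mature neurons, 2 and 3 in newborn neurons, 1 and 2 in neuroblasts, 1 and 0 in cycling cells, and 0 and 3 in the oligodendrocyte lineage; *celsr1b* differed by −3.27 ± 0.26 in mature neurons.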

How the data were processed

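Single-cell suspensions of telencephalon from 3 pools of fish were profiled with the 10x Genomics 3′ v2 kit. The values are UMI counts per gene and cell barcode, deposited by the authors as Cell Ranger 3.0.1 matrices against GRCz11 with Ensembl identifiers; they were not normalized. The unit of the counts is molecules, so PCR copies do not add, and intervals and floors cover counting error only. The study aligned and counted with strand and annotation settings not given in the sources used here. No other sample columns were left out.

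Cells passed with 200 or more genes, mitochondrial UMIs of 10% or less, and a loess residual (span 0.5) of genes on UMIs within 3 SD. Scrublet's own threshold called 2, 1 and 0 doublets, so the cells with the highest scores were removed at 0.8% per 1000 cells (975 in all), leaving 7314, 5631 and 4897. Radial glia needed 4 of 10 markers, cycling cells 3 of 14, neuroblasts 2 of 7, newborn neurons 4 of 11, mature neurons 4 of 16, the oligodendrocyte lineage 3 of 9 precursor or 4 of 8 myelin markers (4 or more for myelinating cells) and macrophages 3 of 14. A cell met no other gate, except that cycling cells could meet those of radial glia, neuroblasts or newborn neurons, and radial glia and neuroblasts that of newborn neurons. Lineage cells with fewer than 4 myelin markers were called precursors. Newborn and mature neurons were told apart by which markers had more UMIs. The classes rest on these marker gates and are not the clusters of the study. Shares of positive cells were taken after thinning each cell to 1000 UMIs and leaving out shallower cells.

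UMIs summed per replicate and class were tested with edgeR 4.0.16 in R 4.3.3 (TMM factors, filterByExpr, robust quasi-likelihood fit, p-values adjusted over all genes by Benjamini-Hochberg, threshold 0.05), tested on simulated data first. The 6 classes shared 1 fit with the replicate as a block, and both splits (myelinating against precursors, GABAergic against glutamatergic) had fits of their own. The block follows from the design, since sums of 1 replicate come from 1 library. The correlation of deviations from the class means was 0.067 to 0.544 (median 0.294) over 45 same-replicate pairs and −0.43 to 0.052 over 90 others. The replicates were pools of fish from separate days. With the replicate as a block, the p-values measure how differences between classes varied from pool to pool, not the spread of levels between pools. Python 3.11.15, scanpy 1.11.5 and DESeq2 1.42.0 were used for the remaining steps.

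The members and lists were chosen with earlier results of these data known. Members were chosen for description as the 20 with the most UMIs. Added to these were, per comparison, the 5 largest rises and the 5 largest falls among called members whose replicates all moved one way. Of the 20, *pcdh1g26*, *pcdh1g22* and *pcdh1g9* are given only by shares or by replicate, and some rises in neuroblasts are left out. Other members are given by counts or as examples. A further list of partner genes is not reported here. Alternatives were other scaling, DESeq2, no filter, no block, each replicate left out, stricter and thinned gates, doublets kept and other depths. Gene symbols were checked against a table of identifiers, in which 55 of 55 members were found and 42 had the same symbol.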

Additional observations from a re-analysis of the deposited data

Results flagged for a closer look

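Cells that met no gate, which no comparison used, also held protocadherin RNA above the macrophage background. Their summed level was 1760 ± 212 CPM (UMIs per 1000000 UMIs) (SD, n = 3), with 1877, 1887 and 1515 in the 3 replicates, against 132 ± 34.4 in macrophages.

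The gene list also has a row with the symbol PCDH8 in capitals, which the choice by symbol leaves out. It had 119 UMIs in all kept cells. They came to 4.0, 12.6 and 15.1 CPM in the oligodendrocyte lineage and 2.86, 12.2 and 5.96 in newborn neurons, against 0, 0.701 and 2.04 in radial glia, with 0 in macrophages.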

How the results depend on the processing

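Calls against radial glia in neurons, neuroblasts and the oligodendrocyte lineage mostly kept their counts, and those in cycling cells, between neuronal classes and between neuron types did not. Counts outside 1.5 times the value in the report were, for cycling cells (5 higher, 4 lower), 1 higher without the block, 2 higher with gates set on thinned cells, and 2 to 6 higher and 2 to 4 lower with a replicate left out (2 and 2 without replicate 3). Neuroblasts had 12 higher, against 19, with thinned gates, and newborn neurons 2 lower, against 1, with stricter or thinned gates. Mature against newborn neurons (7 higher, 7 lower) had 4 higher and 3 lower without the block, 11 and 3 with thinned gates, 4 lower with RLE factors, with DESeq2 and without the filter, and 3 to 5 lower with a replicate left out (3 without replicate 2). Myelinating cells had 25 lower, against 16, without the filter. GABAergic against glutamatergic cells (2 higher, 3 lower) had 0 and 0 with DESeq2 and without the block, 0 and 1 with thinned gates, 0 lower without the filter, and 1 to 3 higher and 0 to 2 lower with a replicate left out. *pcdh17* (−0.09 in mature against newborn neurons) and *pcdh7b* (−0.03), neither of them called, became higher under thinned gates (0.45, edgeR adjusted p = 0.015, and 0.50, edgeR adjusted p = 0.040). Of the single-gene results in the report, over all settings 109 lost a call, 42 gained one and 2 changed sign.

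Log2 ratios of sums to radial glia moved by more than 1 SD in newborn neurons for pcdh1 (1.55; 1.34 with stricter and 1.21 with thinned gates), pcdh2 (0.09; −0.17 and −0.11) and others (2.80; 2.52 and 2.30), in neuroblasts for pcdh2 (−0.40; −0.51 and −0.53) and others (1.45; 0.96 thinned), in mature neurons for pcdh1 (1.53; 1.58 stricter, 1.44 with doublets kept) and in cycling cells for pcdh2 (−1.04; −1.41 thinned). The difference in positive cells from radial glia, in percentage points, was −7.16 in cycling cells, and −9.92 at 2000 UMIs, 1.85 without thinning, −8.36 with thinned gates and −5.49 for 2 or more UMIs. In newborn neurons it was 27.4, and 31.2 at 500 UMIs, 16.4 at 2000, 15.4 without thinning, 21.4 with stricter and 22.1 with thinned gates, and 34.2 for 2 or more UMIs. In mature neurons it was 31.4, and 19.999 at 2000 UMIs, 18.5 without thinning, 30.1 with doublets kept and 35.5 for 2 or more UMIs. In the oligodendrocyte lineage it was 20.5, and −8.40 at 2000 UMIs, 9.48 without thinning and 34.9 for 2 or more UMIs; its deepest cells are myelinating cells, at 25.0% positive at 1000 UMIs. Genes per cell differed from radial glia by −0.122 in cycling cells (−0.0934 at 500 UMIs, −0.185 at 2000, 0.425 without thinning), by 0.230 in neuroblasts (0.480 at 2000, 0.669 without thinning), by 0.992 in newborn neurons (0.633 at 500, 1.36 at 2000, 0.749 with stricter gates), by 0.960 in mature neurons (0.567, 1.53, and 1.38 without thinning) and by 1.11 in the oligodendrocyte lineage (0.646 and 0.550). Scaling factors set to 1 and the lineage with cells of the mature gate were chosen after seeing the data. The cause of these shifts was not tested. UMI number limits the members, since 18 of 55 had 100 or fewer.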

Other observations

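Some members had the same replicate highest in every class. In 5 of 37 tested members 1 replicate was strictly highest in all 6 classes, against 9.85% of 11947 genes with at least 88 UMIs, so the members' 13.5% was near the background. *pcdh2ab9* was highest in replicate 2, at 2.56 times the mean of the others, and *pcdh1g9* likewise at 1.48 times. *pcdh1g32*, *pcdh1g14* and *pcdh1a* were highest in replicate 1, at 1.99, 1.56 and 1.36 times. The cause was not tested.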
